A study of Mus musculus with 18 samples.

Results

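The activators of the circadian clock and 5 of their partners were followed in sorted epithelial cells of the mouse ileum. The genes were the activators Arntl, Clock and Npas2, the cryptochromes Cry1 and Cry2, the nuclear receptor Rora and the repressors Bhlhe40 and Bhlhe41. They were picked by symbol (GENCODE M21 annotation of GRCm38) from the 47729 genes of the count tables, and all 8 were found. Poly(A) RNA had been sequenced in 18 libraries, 6 from pregnant, 6 from pseudopregnant and 6 from virgin females. Pseudopregnancy is a luteal state without embryos. The cells of all 3 groups came from flow cytometry, and all mice were on RM1 chow in the experiment. Strain, age, day of pregnancy, the way pseudopregnancy was induced, hour of collection and sorting markers are not stated in the labels, nor is it said that each library is a separate animal. The p-values therefore measure the spread between these libraries, and an hour of collection that differed between groups cannot be told apart from the group.

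In the mammalian clock the ARNTL protein (also called BMAL1) pairs with CLOCK or its paralog NPAS2 and switches on genes that carry E-boxes, among them the Per and Cry genes, the REV-ERB receptors Nr1d1 and Nr1d2, and Dbp. PER and CRY proteins return to block the pair, and BHLHE40 and BHLHE41 (DEC1 and DEC2) repress at E-boxes as well. ROR receptors activate Arntl and REV-ERB receptors repress it through a shared response element, so in a running clock Arntl and Npas2 peak at hours when Dbp is low.

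Stretches of promoter are shown for 4 genes because they hold, or lack, exact matches to 3 motifs of these loops. Cry2 and Arntl are also shown because they carry most of the relations between libraries described further on. RefSeq promoters of build GRCm38.p6, which run from 250 bases before to 50 after a start, were matched for 7 of the 8 genes in 10 windows; Bhlhe40 is the other gene. Both strands were searched, for exact matches only, so variants of the motifs were not counted. The E-box CACGTG was in 2 of the 10 windows and in 7.15% of 32851 promoters. The core motif AGGTCA of the ROR and REV-ERB element was in 2 of the 10 windows, 1 of Arntl and 1 of Clock, and in 16.3% of promoters. The D-box TTANGTAA, which DBP and NFIL3 bind, was in 0 of the 10 windows and in 2.32% of promoters. Sequences read 5′ to 3′ on the gene's strand, capitals mark a match, and positions count the annotated start as 0. The Arntl stretch (chr7:113207530-113207559, plus strand) lies in the 5′ UTR, with AGGTCA at position 31. That of Cry1 (chr10:85185082-85185141, minus strand) lies upstream of the gene, with the E-box at -60. That of Bhlhe41 (chr6:145865541-145865600, minus strand) has the E-box at -153, and 18 of its bases fall in the first exon of the GENCODE model. Cry2 is given for the 250 bases before its start (chr2:92434070-92434319, minus strand), whose letters hold none of the 3 motifs.
Arntl: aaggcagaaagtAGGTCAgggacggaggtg
Cry1: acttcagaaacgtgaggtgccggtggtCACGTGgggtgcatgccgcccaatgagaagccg
Bhlhe41: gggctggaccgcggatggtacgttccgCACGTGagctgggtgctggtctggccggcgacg
Cry2: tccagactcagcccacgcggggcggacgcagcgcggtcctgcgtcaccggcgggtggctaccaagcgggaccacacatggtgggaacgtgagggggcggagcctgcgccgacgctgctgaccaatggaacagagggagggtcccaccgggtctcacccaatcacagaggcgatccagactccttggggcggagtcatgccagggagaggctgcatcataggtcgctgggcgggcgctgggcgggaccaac

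Library totals were 24.9 to 37.3 M (mega) counts in the pregnant, 28.5 to 32.5 M in the pseudopregnant and 28.1 to 32.5 M in the virgin group. Levels are given as CPM (counts of a gene per M counts of its library) with TMM scaling, which corrects for RNA composition. The epithelial marker Epcam lay between 1638.5 and 3589.0 CPM over all libraries, and the leukocyte marker Ptprc between 0.198 and 0.638 CPM. None of the 10 T and innate lymphoid, 6 B and plasma cell, 10 stromal and 6 neuronal and glial markers reached a mean of 1 CPM, and 2 of 8 myeloid markers did. In bulk RNA such as this, fewer cells of a type and less RNA per cell cannot be told apart.

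Both partners of ARNTL were present, and per kilobase of annotated exon Npas2 was the more abundant of the pair in 18 of 18 libraries. The order of mean levels over the 18 libraries was Bhlhe40 (13.2 ± 2.02 CPM per kb, SD), Npas2 (6.19 ± 1.05), Arntl (3.72 ± 0.73), Cry1 (3.49 ± 0.778), Clock (3.48 ± 0.82), Cry2 (1.6 ± 0.447), Rora (0.0304 ± 0.011) and Bhlhe41 (0.00677 ± 0.00733). Arntl, Cry1 and Clock lay within 1 SD of each other, while the other steps down to Rora were larger than the SD of the lower gene. The ratio of Npas2 to Clock per length was 1.84 ± 0.268 in pregnant, 1.66 ± 0.407 in pseudopregnant and 1.98 ± 0.195 in virgin libraries (mean ± SD, n = 6 each). Cry1 likewise exceeded Cry2 per length in 18 of 18 libraries, with ratios of 1.89 ± 0.357 in pregnant, 2.37 ± 0.854 in pseudopregnant and 2.71 ± 0.76 in virgin libraries. Length here counts the bases of all annotated exons, so a gene with long, little-used exons reads low on this scale. Clock has 13727 such bases and Npas2 4791. In CPM without division by length their order was the reverse, with means of 47.7 for Clock and 29.7 for Npas2. The means of Cry1 and Cry2 were 11.7 and 10.1 CPM.

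**Figure D1:**
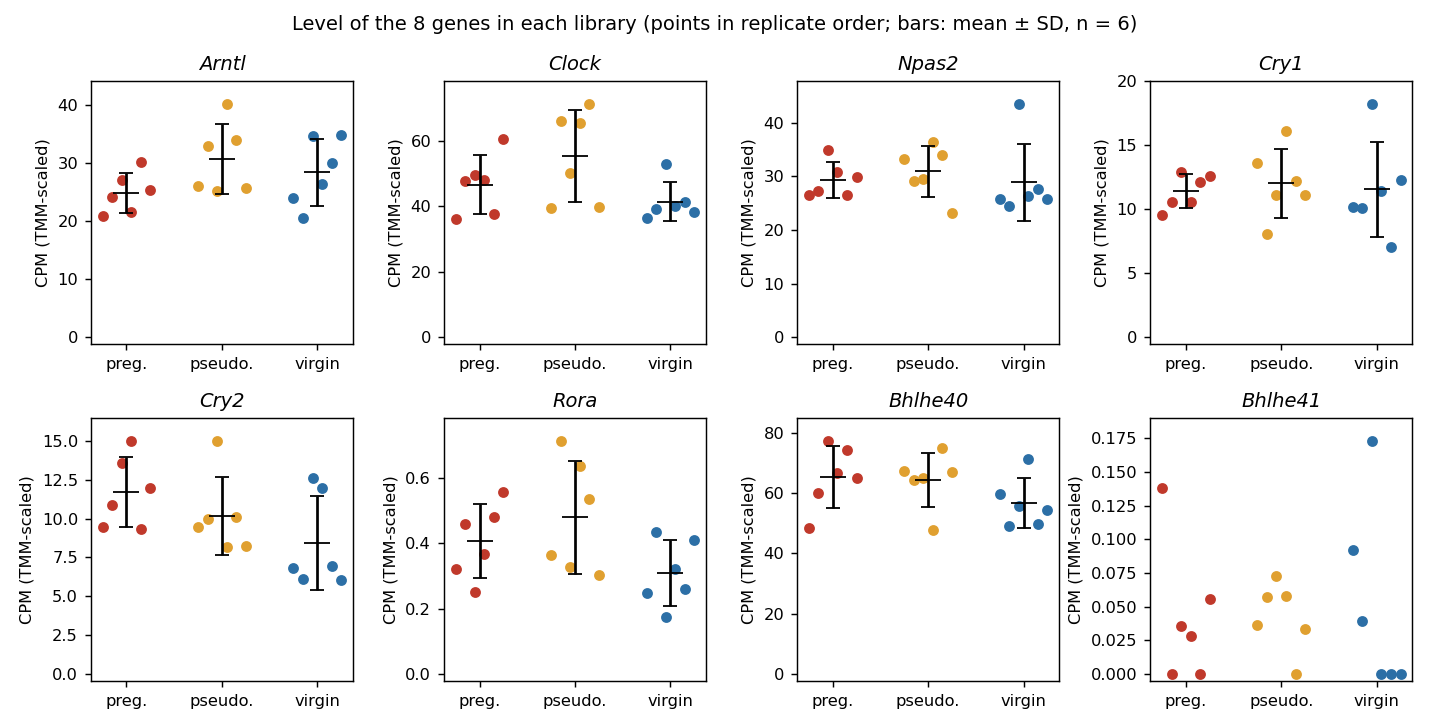
Level of each gene in every library (y axis, TMM-scaled CPM), with pregnant, pseudopregnant and virgin libraries from left to right; points are libraries and bars are mean ± SD (n = 6), left out for Bhlhe41. The groups overlap in all 8 panels, and Clock spans 39.4 to 71.1 CPM within the pseudopregnant group.

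No difference between groups in any of the 7 genes that could be tested passed the adjusted threshold of 0.05. The test was edgeR's quasi-likelihood test with Benjamini-Hochberg adjustment over 14675 genes, and the background was the same: 0 genes (0.0%) passed in each of the 3 comparisons. At an unadjusted p under 0.05, 1 of the 7 differed between pregnant and virgin libraries, Cry2, which was higher, against 3.68% of all tested genes (540), 2.02% higher and 1.66% lower. Between pseudopregnant and virgin libraries 2 of the 7 did, Clock and Rora, both higher, against 9.37% of all tested genes (1375), 7.36% higher and 2.01% lower. Between pregnant and pseudopregnant libraries 0 of the 7 did, against 2.35% (345), 0.763% higher and 1.59% lower. The ranges of the groups overlapped for all 7 in each comparison, and of all tested genes 0.0681%, 0.0681% and 0.0273% had ranges without overlap in the same order. The median log2 fold change of the 7 was 0.17 in pregnant against virgin, 0.18 in pseudopregnant against virgin and -0.08 in pregnant against pseudopregnant libraries, beside all-gene medians of -0.01, 0.0 and -0.01. The comparisons with virgin libraries share those 6 libraries, so their values are given side by side only.

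**Figure D2:**
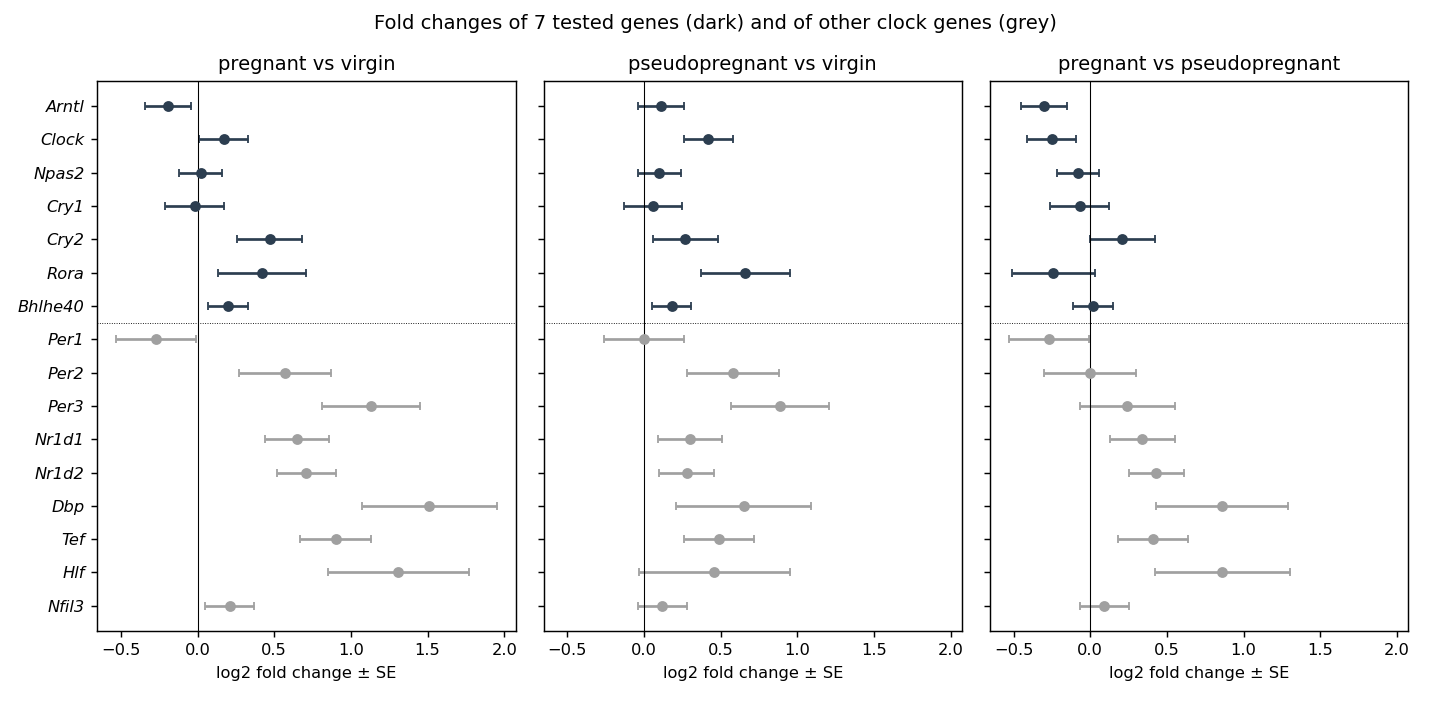
Log2 fold change ± SE (x axis) of the 7 tested genes in dark symbols and of 9 other clock genes in grey (y axis), for pregnant against virgin, pseudopregnant against virgin and pregnant against pseudopregnant libraries. The dark symbols lie between -0.3 and 0.66, and the grey ones reach 1.51 (Dbp, pregnant against virgin).

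Arntl, the main partner of CLOCK and NPAS2 in the activating pair (ENSMUSG00000055116, chromosome 7, 113207465 to 113314126, plus strand), had its lowest median in pregnant libraries. Its lowest, median and highest levels were 20.9, 24.8 and 30.1 CPM in pregnant libraries, 25.2, 29.5 and 40.1 CPM in pseudopregnant libraries, and 20.5, 28.2 and 34.8 CPM in virgin libraries. Of the pregnant libraries 5 of 6 were below the virgin median and 5 of 6 below the pseudopregnant one, but the ranges overlapped. The log2 fold change was -0.19 (SE 0.15, edgeR adjusted p = 0.891) in pregnant against virgin, 0.11 (SE 0.15, adjusted p = 0.713) in pseudopregnant against virgin and -0.3 (SE 0.15, adjusted p = 0.92) in pregnant against pseudopregnant libraries.

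Clock, which encodes the histone acetyltransferase partner of ARNTL (ENSMUSG00000029238, chromosome 5, 76209868 to 76304792, minus strand), was spread most widely in the pseudopregnant group. It ran over 36.0, 47.8 and 60.6 CPM (lowest, median, highest) in pregnant libraries, 39.4, 57.7 and 71.1 CPM in pseudopregnant libraries, and 36.3, 39.7 and 53.0 CPM in virgin libraries. Pseudopregnant libraries 2, 4 and 5, at 65.5 to 71.1 CPM, stood above every library of the other groups, and the remaining 3 lay inside the virgin range. The log2 fold change was 0.17 (SE 0.16, edgeR adjusted p = 0.891) in pregnant against virgin, 0.42 (SE 0.16, unadjusted p = 0.018, adjusted p = 0.515) in pseudopregnant against virgin and -0.25 (SE 0.16, adjusted p = 0.92) in pregnant against pseudopregnant libraries. Without pseudopregnant replicate 5 the unadjusted p of Clock against virgin libraries was 0.0552.

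Npas2, the paralog that can take the place of CLOCK (ENSMUSG00000026077, chromosome 1, 39193731 to 39363236, plus strand), was at 26.5, 28.6 and 34.9 CPM (lowest, median, highest) in pregnant libraries, 23.1, 31.3 and 36.4 CPM in pseudopregnant libraries, and 24.5, 26.1 and 43.4 CPM in virgin libraries. The highest value of all came from virgin replicate 3, and the other 5 virgin libraries did not exceed 27.6 CPM. Each pregnant library thus exceeded the median of the virgin group while the fold change was near 0. It was 0.02 (log2, SE 0.14, edgeR adjusted p = 0.984) in pregnant against virgin, 0.1 (SE 0.14, adjusted p = 0.74) in pseudopregnant against virgin and -0.08 (SE 0.14, adjusted p = 0.93) in pregnant against pseudopregnant libraries. Without virgin replicate 3 the value in pseudopregnant against virgin libraries was 0.25 (unadjusted p = 0.0458, adjusted p = 0.285 in edgeR).

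Cry1, the stronger repressor of the cryptochrome pair (ENSMUSG00000020038, chromosome 10, 85131700 to 85185064, minus strand), was at 9.58, 11.4 and 12.9 CPM (lowest, median, highest) in pregnant libraries, 8.03, 11.7 and 16.1 CPM in pseudopregnant libraries, and 7.07, 10.8 and 18.2 CPM in virgin libraries. The pregnant range lay wholly inside both others. Log2 fold changes were -0.02 (SE 0.19, edgeR adjusted p = 0.989) in pregnant against virgin, 0.06 (SE 0.19, adjusted p = 0.887) in pseudopregnant against virgin and -0.07 (SE 0.19, adjusted p = 0.949) in pregnant against pseudopregnant libraries.

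Cry2, the other cryptochrome (ENSMUSG00000068742, chromosome 2, 92403646 to 92434043, minus strand), was the member with the largest value between pregnant and virgin libraries. It was at 9.45, 10.9, 13.6, 15.0, 9.32 and 12 CPM in pregnant replicates 1 to 6, at 9.48, 9.96, 15.0, 8.17, 10.1 and 8.21 CPM in pseudopregnant replicates 1 to 6, and at 6.83, 6.12, 12.6, 12, 6.95 and 6.07 CPM in virgin replicates 1 to 6. In all, 4 virgin libraries lay below every pregnant and every pseudopregnant library, and virgin replicates 3 and 4 lay among the higher values of both. The log2 fold change was 0.47 (SE 0.21, unadjusted p = 0.035, edgeR adjusted p = 0.891) in pregnant against virgin, with all 6 pregnant libraries above the virgin median. It was 0.27 (SE 0.21, adjusted p = 0.55) in pseudopregnant against virgin, again with 6 of 6 above that median, and 0.21 (SE 0.21, adjusted p = 0.92) in pregnant against pseudopregnant libraries. The unadjusted p of Cry2 in pregnant against virgin libraries exceeded 0.05 when any 1 of 7 libraries was left out (virgin 1, 2, 5 and 6, pregnant 3, 4 and 6), at most 0.089.

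Rora, the ROR receptor among the 8 (ENSMUSG00000032238, chromosome 9, 68653786 to 69388246, plus strand), was close to the limit of detection, at 7 to 20 counts per pregnant, 9 to 25 per pseudopregnant and 5 to 14 per virgin library. Its lowest, median and highest levels were 0.249, 0.412 and 0.555 CPM in pregnant libraries, 0.303, 0.449 and 0.712 CPM in pseudopregnant libraries, and 0.173, 0.292 and 0.435 CPM in virgin libraries. All 6 pseudopregnant libraries were above the virgin median, with overlap. The log2 fold change was 0.42 (SE 0.29, edgeR adjusted p = 0.891) in pregnant against virgin, 0.66 (SE 0.29, unadjusted p = 0.0316, adjusted p = 0.515) in pseudopregnant against virgin and -0.24 (SE 0.27, adjusted p = 0.92) in pregnant against pseudopregnant libraries. Without any 1 of virgin replicates 1, 3 and 5 or pseudopregnant replicates 2, 4 and 5 the unadjusted p of Rora against virgin libraries exceeded 0.05, at most 0.0973. Rora is also expressed by lymphoid, stromal and neural cells, whose markers were scarce too. The 10 T and innate lymphoid markers summed to 0.932 to 2.57 CPM in pregnant, 0.675 to 4.08 in pseudopregnant and 0.953 to 3.05 in virgin libraries. The 10 stromal markers summed to 0.48 to 1.79, 0.55 to 1.28 and 0.58 to 0.832 CPM in pregnant, pseudopregnant and virgin libraries, and the 6 neuronal and glial markers, with Sox10 at 0 throughout, to 0.479 to 0.963, 0.29 to 0.825 and 0.555 to 1.19 CPM. The part of these cells in the Rora values was not tested. Its relative Rorb had at most 1 count in a library.

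Bhlhe40, a repressor that responds to many stimuli (ENSMUSG00000030103, chromosome 6, 108660629 to 108666925, plus strand), was the most abundant of the 8 per length. It was at 48.4, 65.7 and 77.2 CPM (lowest, median, highest) in pregnant libraries, 47.8, 65.9 and 75.0 CPM in pseudopregnant libraries, and 49.0, 55.0 and 71.2 CPM in virgin libraries. In pregnant and in pseudopregnant animals alike 5 of 6 libraries were above the virgin median, and the ranges overlapped almost fully. Log2 fold changes were 0.2 (SE 0.13, edgeR adjusted p = 0.891) in pregnant against virgin, 0.18 (SE 0.13, adjusted p = 0.529) in pseudopregnant against virgin and 0.02 (SE 0.13, adjusted p = 0.98) in pregnant against pseudopregnant libraries. An antisense gene, 0610040F04Rik, shares 118 exon bases with Bhlhe40 and had 2 to 10 counts per library. Its paralog Bhlhe41 (ENSMUSG00000030256, chromosome 6, 145858243 to 145865558, minus strand) had 0 to 3 counts per pregnant, 0 to 2 per pseudopregnant and 0 to 5 per virgin library, 24 in all, and 6 of 18 libraries had 0. That is too few for the low-count filter, so no test was made. A library at 0 allows a level of up to 3 counts, which is 0.0805 to 0.12 CPM over the 18 libraries and covers counting error only. This range is on library totals without TMM scaling. With scaling, the 3 counts of Bhlhe41 in pregnant replicate 1 were 0.138 CPM.

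Of the 9 tested repressor and output genes of the clock, Per1, Per2, Per3, Dbp, Tef and Hlf varied more between libraries than any of these 7 did. The SD of log2 CPM about the group means was 0.22 for Bhlhe40, 0.24 for Npas2, 0.263 for Arntl, 0.293 for Clock, 0.334 for Cry1, 0.37 for Cry2 and 0.411 for Rora, where the median of all tested genes was 0.36. The order is not firm: without virgin replicate 3 the value of Npas2 was 0.171, and within pregnant libraries Npas2 (0.156), Cry1 (0.167) and Arntl (0.199) varied less than Bhlhe40 (0.242). It was 0.441 for Tef, the least variable of those 6, and 0.879 for Dbp and 0.57 for Per2, at percentiles 97.1 and 82.8 of all tested genes. Of that list, 6 of the 9 tested genes were higher at an unadjusted p under 0.05 in pregnant against virgin libraries (2.02% of all tested genes were), 2 in pseudopregnant against virgin (7.36%) and 1 in pregnant against pseudopregnant libraries (0.763%). The 4 of smallest p in pregnant against virgin libraries were Tef (log2 fold change 0.9, SE 0.23), Nr1d2 (0.71, SE 0.19), Per3 (1.13, SE 0.32) and Dbp (1.51, SE 0.44), each with an edgeR adjusted p of 0.891. In pseudopregnant against virgin libraries they were Per3 (0.89, SE 0.32), Tef (0.49, SE 0.23), Per2 (0.58, SE 0.3) and Nr1d2 (0.28, SE 0.18), and in pregnant against pseudopregnant libraries Nr1d2 (0.43, SE 0.18), Dbp (0.86, SE 0.43), Hlf (0.86, SE 0.44) and Tef (0.41, SE 0.23). The Hlf value was 0.11 without pregnant replicate 6, and that of Dbp was 0.55 without pregnant replicate 4. With the absorptive minus proliferation score described further on as a covariate, the values in pregnant against virgin libraries were 0.96 for Dbp, 0.63 for Tef, 0.54 for Nr1d2 and 0.95 for Per3 (unadjusted p = 0.0445, 0.00302, 0.00479 and 0.0117 in edgeR, each adjusted p = 1.0). Of 6 tested relatives and cofactors 0 reached an unadjusted p under 0.05 in any of the 3 comparisons. The PER kinase gene Csnk1d had a log2 fold change of 0.1 (SE 0.09) in pregnant and in pseudopregnant against virgin libraries, and Csnk1e had -0.1 (SE 0.14) in pregnant against virgin, -0.05 (SE 0.14) in pseudopregnant against virgin and -0.05 (SE 0.14) in pregnant against pseudopregnant libraries. Fbxl21, which encodes a cryptochrome ligase subunit, had 0.2 (SE 0.24) in pregnant against virgin and 0.16 (SE 0.24) in pregnant against pseudopregnant libraries, and Timeless, of the replication fork, -0.07 (SE 0.23) in pregnant against pseudopregnant libraries. Btrc, whose product marks PER for decay, had -0.1 (SE 0.12) in pregnant and -0.07 (SE 0.12) in pseudopregnant against virgin libraries, and the deubiquitinase gene Usp2 had -0.14 (SE 0.18) in pseudopregnant against virgin and 0.1 (SE 0.18) in pregnant against pseudopregnant libraries.

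Across the 18 libraries, whatever their group, Cry2 went up and down with the REV-ERB genes and Tef, and Arntl ran opposite to Dbp. Of 63 pairs between the 7 genes and the 9 repressor and output genes, 7 passed an adjusted p of 0.05 for Pearson's r of log2 CPM (two-sided permutation test, 100000 permutations, Benjamini-Hochberg over the 63). How many of all tested genes correlate as strongly with these genes was not counted. The genes of most similar pattern, ranked further on, include none of the 9. Cry2 took part in 4 of the 7 pairs that passed. With Nr1d2, r was 0.83 (rho 0.77, permutation p = 4e-05, adjusted p = 0.00231), 0.76 without the 2 libraries farthest out, and 0.88 within pregnant, 0.86 within pseudopregnant and 0.71 within virgin libraries. The relation thus had the same sign in each group. With Nr1d1, r was 0.81 (rho 0.8, permutation p = 9e-05, adjusted p = 0.00231), 0.73 without the 2 farthest, and 0.82, 0.61 and 0.86 within pregnant, pseudopregnant and virgin libraries. With Tef, a PAR bZIP output factor, it was 0.8 (rho 0.74, permutation p = 0.00011, adjusted p = 0.00231), 0.77 without the 2 farthest, and 0.94, 0.71 and 0.97 within the groups in the same order. Per3 gave a smaller r of 0.67 (rho 0.67, permutation p = 0.00266, adjusted p = 0.0279), also 0.67 without the 2 farthest, and 0.7, 0.67 and 0.43 within groups. Centred on group means, the pairs of Cry2 with Nr1d2, Nr1d1 and Tef still passed (r 0.77, 0.73 and 0.71, adjusted p = 0.011, 0.011 and 0.00724 by permutation within groups) and that with Per3 did not (0.53, adjusted p = 0.16).

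Arntl and Dbp had an r of -0.75 (rho -0.73, permutation p = 0.00025, adjusted p = 0.00394), -0.63 without the 2 farthest libraries, and -0.52 within pregnant, -0.92 within pseudopregnant and -0.98 within virgin libraries. The library with the highest Arntl, pseudopregnant replicate 4 at 40.1 CPM, had the lowest Dbp of all at 1.56 CPM. Pregnant replicate 4, with the highest Dbp at 24.4 CPM, had 21.5 CPM of Arntl, the third lowest of the 18. On the levels themselves, Npas2 with Dbp did not pass (r -0.14, rho -0.06, adjusted permutation p = 0.823). Neither did Arntl with Nr1d1 (r -0.16, rho -0.04, adjusted permutation p = 0.819) or with Nr1d2 (r -0.38, rho -0.41, adjusted permutation p = 0.337). Npas2 ran with Nfil3, a D-box repressor, with an r of 0.67 (rho 0.68, permutation p = 0.00247, adjusted p = 0.0279), 0.5 without the 2 farthest libraries, and 0.07, 0.72 and 0.81 within pregnant, pseudopregnant and virgin libraries. Clock with Per2 passed narrowly (r 0.63, rho 0.54, permutation p = 0.00529, adjusted p = 0.0476), with 0.48 without the 2 farthest and 0.85, 0.76 and -0.34 within the same groups, so the virgin libraries went the other way. The rho of Clock with Per2 did not pass (adjusted permutation p = 0.136). Centred on group means, Arntl with Dbp (r -0.75, adjusted p = 0.00724) and Npas2 with Nfil3 (0.7, adjusted p = 0.0494) passed by permutation within groups. Clock with Per2 did not (0.58, adjusted p = 0.16).

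**Figure D3:**
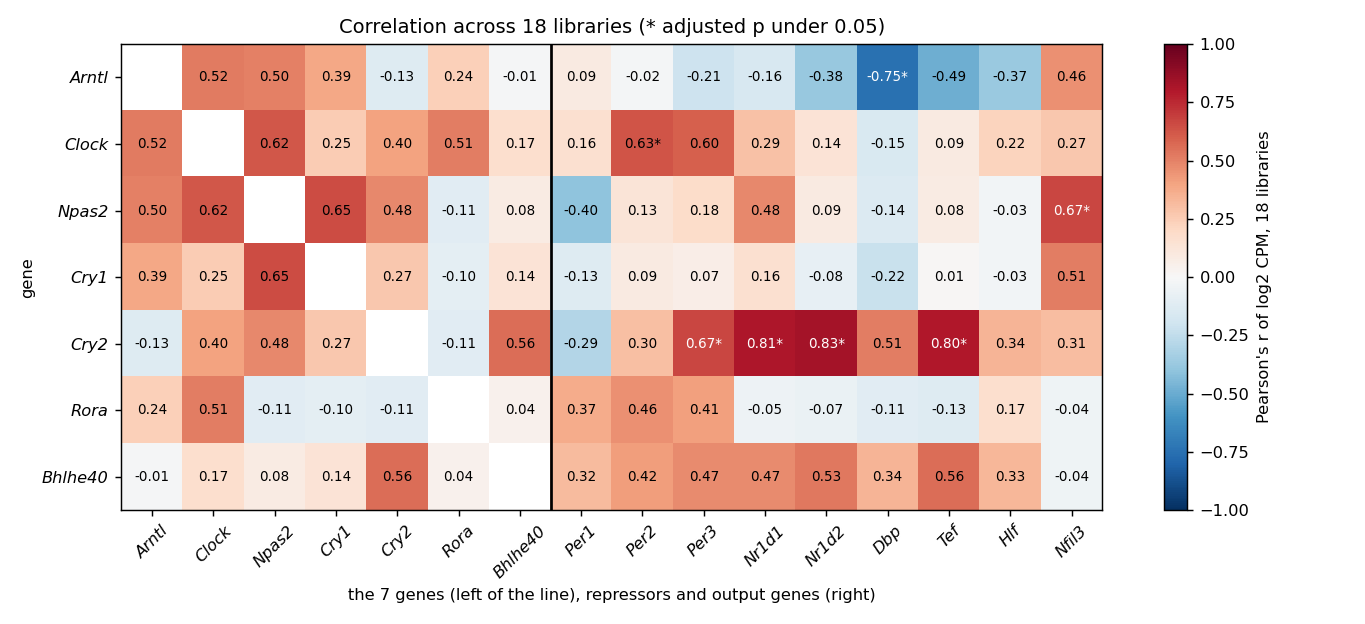
Pearson's r of log2 CPM over 18 libraries for the 7 tested genes (y axis) against each other (left of the line) and against 9 repressor and output genes (right of it), in red for positive and blue for negative r, with a star at an adjusted p under 0.05. Stars stand in 7 of 63 cells on the right and 0 of 21 pairs on the left, and the highest r is that of Cry2 with Nr1d2 (0.83) and the lowest that of Arntl with Dbp (-0.75).

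Among the 7 genes themselves 0 of 21 pairs passed for r. The closest were Npas2 with Cry1 (r 0.65, rho 0.58, permutation p = 0.00364, adjusted p = 0.0642; r 0.33 without the 2 farthest libraries) and Clock with Npas2 (r 0.62, rho 0.71, permutation p = 0.00611, adjusted p = 0.0642; 0.67 without the 2 farthest). Clock and Npas2 had an r of 0.6 within pregnant, 0.53 within pseudopregnant and 0.96 within virgin libraries, and their rho alone passed (adjusted permutation p = 0.0258). Arntl with Clock had an r of 0.52 (rho 0.44, adjusted permutation p = 0.117) and Cry1 with Cry2 one of 0.27 (rho 0.27, adjusted permutation p = 0.573).

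Several of these levels moved with measures of the library as a whole. One is the length slope, the slope over 4935 well expressed genes of a library's log2 deviation on log2 exon length; it ran from -0.231 to 0.154 in pregnant, -0.161 to 0.249 in pseudopregnant and -0.246 to 0.085 in virgin libraries. Clock, with 13727 exon bases the longest of the 8, had an r of 0.91 with it (rho 0.9, permutation p = 1e-05, the smallest the permutations can give, adjusted p = 0.00021 over 21 relations, 0.91 without the 2 farthest libraries). Arntl had 0.67 (rho 0.59, adjusted permutation p = 0.0176, 0.56 without the 2 farthest) and Npas2 0.59 (rho 0.72, adjusted permutation p = 0.0446, 0.5 without the 2 farthest). With the slope as a covariate, the log2 fold change of Clock in pseudopregnant against virgin libraries was 0.12 (unadjusted p = 0.194), and that of Rora 0.47 (unadjusted p = 0.153). In that comparison 0 of the 7 genes reached an unadjusted p under 0.05, beside 311 of all 14675 tested genes, against 1375 without the slope. In pregnant against virgin libraries the same fit gave -0.28 for Arntl (unadjusted p = 0.018, edgeR adjusted p = 0.84) and 0.41 for Cry2 (unadjusted p = 0.0541). Arntl thus took the place of Cry2 as the 1 gene of the 7 under 0.05, beside 678 of all 14675 tested genes. On residuals from the slope, the r of Clock with Npas2 was 0.25 and that of Clock with Per2 0.37, and neither passed. Arntl against Dbp was -0.83 on the same residuals (adjusted permutation p = 0.00042). There Arntl also ran opposite to Per3 (-0.84), Tef (-0.76), Nr1d2 (-0.75), Hlf (-0.65) and Per2 (-0.63). On the levels themselves these r were -0.21, -0.49, -0.38, -0.37 and -0.02 in the same order. They did not pass (adjusted permutation p = 0.702, 0.186, 0.337, 0.36 and 0.943).

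The other measure is a score, the mean log2 deviation of 22 absorptive enterocyte genes minus that of 22 proliferation genes. Each gene's deviation was taken from its own mean over the 18 libraries. The absorptive genes summed to 34630.2 to 69661.9 CPM in pregnant, 32121.6 to 57135.2 in pseudopregnant and 28632.3 to 69715.8 in virgin libraries, and the proliferation genes to 461.2 to 870.8, 523.3 to 1025.9 and 493.0 to 962.4 CPM in the same order. Cry2 had an r of 0.82 with this score (rho 0.86, permutation p = 8e-05, adjusted p = 0.00084, 0.82 without the 2 farthest libraries) and Npas2 one of 0.63 (rho 0.59, adjusted permutation p = 0.0289, 0.38 without the 2 farthest). Virgin replicate 3, high in Cry2 and highest in Npas2, had the second highest score of the 18 (1.29). Virgin replicate 4 was also high in Cry2, but its score was -0.23. That was close to the score of virgin replicate 1 (-0.32), which was low in Cry2 (6.83 CPM). With the score as a covariate, the log2 fold change of Cry2 in pregnant against virgin libraries was 0.28 (unadjusted p = 0.0667). That of Rora was 0.64 (unadjusted p = 0.0384, edgeR adjusted p = 1.0), the 1 gene of the 7 under an unadjusted 0.05 in this comparison. Of all 14675 tested genes 289 were. In pseudopregnant against virgin libraries the same fit gave 0.41 for Clock (unadjusted p = 0.02) and 0.76 for Rora (unadjusted p = 0.00992). Each had an edgeR adjusted p of 0.43, and 1659 of all tested genes were under an unadjusted 0.05 there. On residuals from the score, a step added after the data were seen, Cry2 with Nr1d2 had an r of 0.73 (adjusted permutation p = 0.0118), while Cry2 with Nr1d1 (0.45, adjusted permutation p = 0.197) and with Tef (0.52, adjusted permutation p = 0.118) did not pass. Arntl with Dbp was -0.82 on these residuals (adjusted permutation p = 0.00126). Npas2 with Dbp, which did not pass on the levels, was -0.77 on them (adjusted permutation p = 0.0118). The share of mitochondrial counts, 4.02 to 9.22% of a library, passed for r with 0 of the 7 genes. Clock had an r of 0.44 with it (adjusted permutation p = 0.189), and 0.62 without the 2 farthest libraries. Its rho was 0.64 (unadjusted permutation p = 0.00525).

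**Figure D4:**
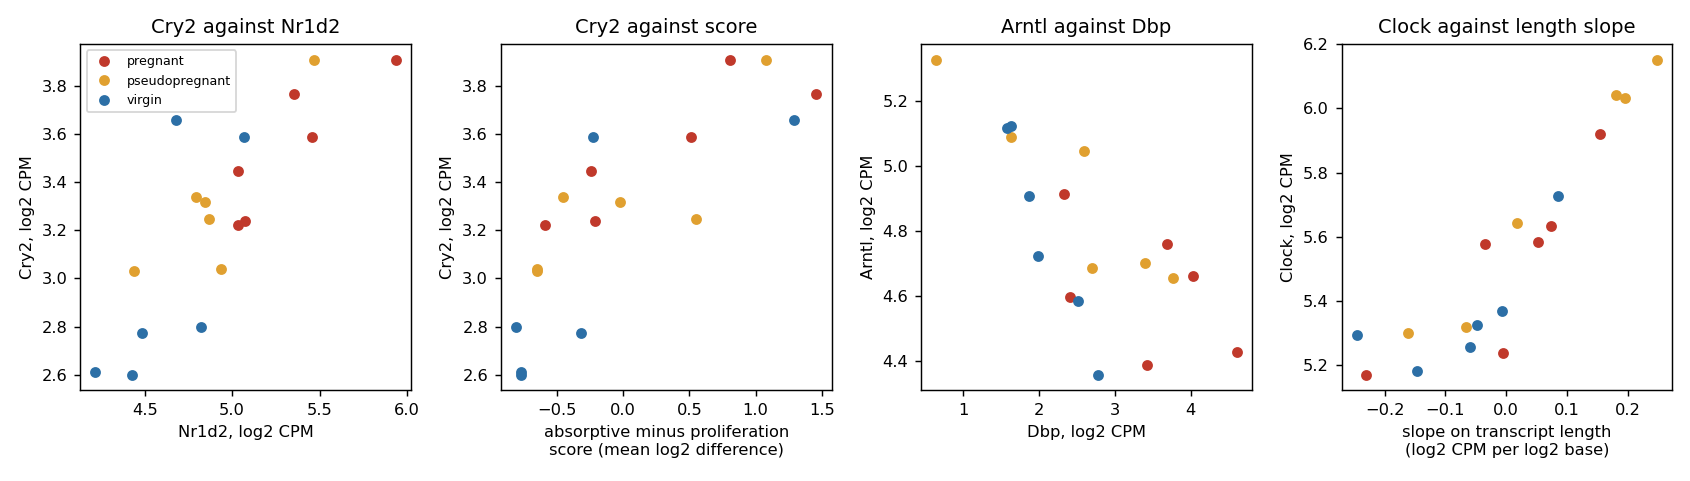
Log2 CPM of Cry2 against that of Nr1d2, of Cry2 against the absorptive minus proliferation score, of Arntl against Dbp and of Clock against the length slope; each point is a library, coloured by group. Cry2 and Clock climb with their x axes (r 0.83, 0.82 and 0.91) and Arntl declines along that of Dbp (-0.75); the top 3 points of the Clock panel are pseudopregnant and the lowest 4 of the Cry2 panels are virgin libraries.

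**Figure D5:**
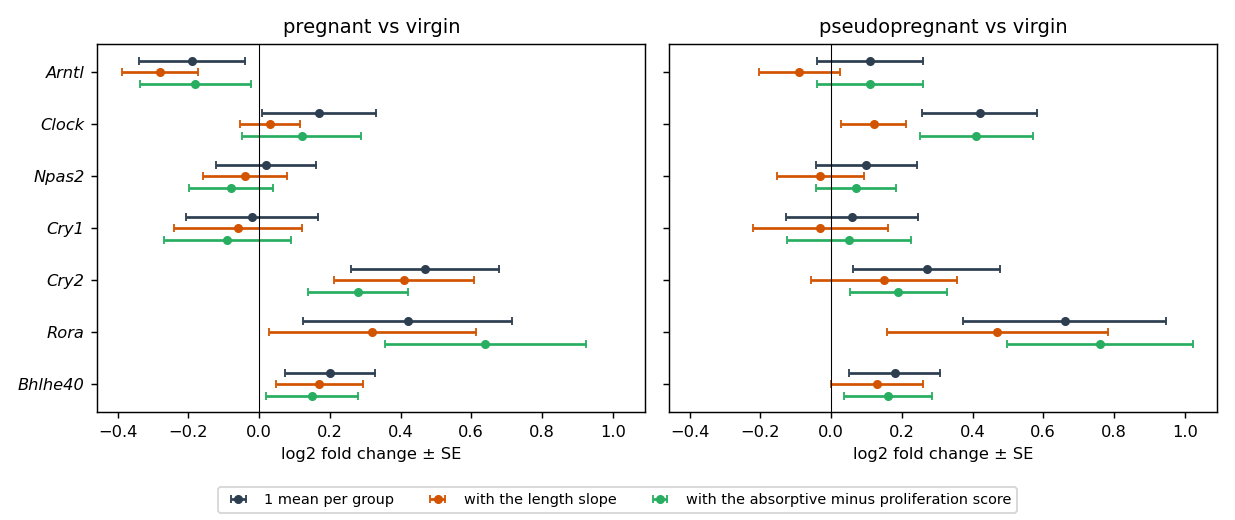
Log2 fold change ± SE (x axis) of the 7 genes (y axis) in pregnant against virgin and pseudopregnant against virgin libraries, from the fit with 1 mean per group and with either library measure added as a covariate. Clock in pseudopregnant against virgin libraries is 0.42 without a covariate and 0.12 with the length slope, and Cry2 in pregnant against virgin libraries is 0.47 without one and 0.28 with the score.

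The genes whose pattern over the 18 libraries was most like each of the 7 were ranked by Spearman's rho of group-centred log2 CPM among 9956 genes with a mean of at least 5 CPM. For Cry2 these were Abcg5 and Npc1l1 (0.93 each), which encode sterol transporters of the enterocyte, and Ddhd2 (0.92). For Clock they were Nsd1 (0.98), Ago2 and Kmt2d (0.97 each), and for Npas2 Stat3 (0.94), Git1 and Cx3cl1 (0.91 each). Arntl was most like R3hcc1l and Sde2 (0.87 each) and St5 (0.85), and Rora most like Zfp704 and Ppp1r9a (0.88 each) and Kif21a (0.87). Cry1 and Bhlhe40 had no neighbour as close: the nearest were Tmco3 (0.79), Scrn3 (0.75) and F2rl1 (0.74) for Cry1, and Pon2 (0.74), Aldh7a1 (0.72) and Npl (0.71) for Bhlhe40.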

How the data were processed

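RNA from sorted ileal epithelial cells was sequenced after poly(A) enrichment and a directional library kit, per the labels' protocols. Each library has its own deposited table of raw counts of reads over Ensembl genes, which the authors made with HISAT2 2.0.4 and featureCounts (Subread 2.0.0) on GRCm38, per the submitters' processing notes; these also name FastQC 0.11.5 and DESeq2 1.24.0. Neither the annotation release nor the strand setting of the counting is stated there, and a gene and its antisense partner may share reads.

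The titles gave each library's group and replicate number. GENCODE M21 gave symbols for 47310 of 47729 genes. The 8 genes and all gene lists were chosen with earlier results of these data known. No library repeated another: between replicates of a group, chi-square over its degrees of freedom was 32.5 to 415.9. After edgeR's filterByExpr, 14675 genes were scaled by TMM and fitted with edgeR 4.0.16 (R 4.3.3, glmQLFit with legacy = FALSE) to all 18 libraries with 1 mean per group; tests between pairs of groups were two-sided, adjusted by Benjamini-Hochberg, at 0.05. The fit was tested on simulated data. Log2 CPM for correlations and spread used a prior count of 2, and r and rho were tested with 100000 permutations in Python 3.11.15. Since Bhlhe41 and Ciart fell below the filter, 21 and 63 pairs were tested. The genes named beside the 8 were the 4 of smallest p per list and comparison and the 3 of most similar pattern per gene; 2 genes of the list of relatives and cofactors are not reported here. Library totals of 24.9 to 37.3 M (mega) counts gave a median SE of 0.202 for a log2 fold change between pregnant and virgin libraries. Alternatives were DESeq2 size factors, no low-count filter, DESeq2 1.42.0, limma-voom (limma 3.58.1), only the 12 libraries compared, the replicate number as a block, the length slope or the absorptive minus proliferation score as a covariate, another prior count, Spearman's rho, group-centred values, and each library left out.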

Additional observations from a re-analysis of the deposited data

Results flagged for a closer look

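In 5 of 60 sets of 6 libraries (a gene in a group), 1 library stood apart from the others, with a gap to its nearest neighbour above 0.625 of the set's range; chance gives about 1 in 20. Virgin replicate 3 accounted for 3 of them. It was the highest virgin library for Npas2 (43.4 CPM, next 27.6, gap over range 0.836), for Clock (53.0 CPM, next 41.3, gap 0.701) and for Csnk1d (133.1 CPM, next 111.9, gap 0.768). The same library had the highest length slope (0.085) and the highest absorptive minus proliferation score (1.29) of the virgin group, and the part of these in its levels was not tested. Cry2 was high in pseudopregnant replicate 3 (15.0 CPM, next 10.1, gap 0.717), which had the highest score of its group (1.08). Hlf was high in pregnant replicate 6 (3.39 CPM, next 1.13, gap 0.762).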

How the results depend on the processing

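Of 900 alternative values of 45 log2 fold changes, 864 kept their direction and side of the threshold, 36 in 12 results changed sign and 0 passed the adjusted threshold; the lowest adjusted p of any of the 7 genes was 0.171 (edgeR). The cause of the sign changes was not tested. In pregnant against virgin libraries, Npas2 was -0.04 with the length slope, -0.08 with the score and -0.04 to 0.17 with a library left out, Cry1 was 0.04 with limma-voom and -0.12 to 0.16 with a library left out, and Csnk1e was -0.16 to 0.02 with a library left out. In pseudopregnant against virgin libraries the length slope gave -0.09 for Arntl, -0.03 for Npas2, -0.03 for Cry1, 0.09 for Usp2 and 0.06 for Csnk1e, and leaving out a library gave -0.05 to 0.23 for Cry1, -0.26 to 0.04 for Usp2 and -0.12 to 0.05 for Csnk1e. In pregnant against pseudopregnant libraries Bhlhe40 was -0.01 with the score, Timeless was 0.1 with the score and 0.02 with the length slope, and leaving out a library gave -0.17 to 0.03 for Cry1, -0.05 to 0.11 for Bhlhe40, -0.1 to 0.01 for Csnk1e and -0.18 to 0.03 for Timeless.

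The number of the 7 genes at an unadjusted p under 0.05 ran from 0 to 2 in pregnant against virgin (2, with Bhlhe40 added, without pregnant replicate 1 or virgin replicate 4), 0 to 2 in pseudopregnant against virgin (0 without pseudopregnant replicate 5, 1 without pseudopregnant 2 or 4 or virgin 1 or 5, and 2 with Npas2 in place of Rora without virgin 3) and 0 to 1 in pregnant against pseudopregnant libraries (1, Arntl, without pregnant 5 or pseudopregnant 1, 3 or 6) when 1 library was left out, and was 0 in pseudopregnant against virgin libraries with the length slope. The shares of all tested genes in the fits with a library left out are not given here, so those counts are not read as a result about the 7 genes. Over all genes, limma-voom called 0 in each comparison (528, 1107 and 247 at an unadjusted p under 0.05, in the order used above) and DESeq2 called 2, 0 and 0 (786, 1720 and 554). With the length slope 311 genes were at an unadjusted p under 0.05 in pseudopregnant against virgin libraries.

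Correlated pairs among the 7 genes numbered 1 by Spearman's rho, 2 on residuals from the score (chosen after seeing the data) and 0 to 2 with a library left out (2 without pseudopregnant replicate 2 or virgin replicate 3, 1 without pseudopregnant replicate 1 or virgin replicate 5). Those with repressor and output genes numbered 12 on residuals from the length slope and 4 to 9 with a library left out (4 without virgin replicate 1). The spread was 0.193 to 0.228 for Bhlhe40 and 0.171 to 0.248 for Npas2 with a library left out.

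Groups share replicate numbers, and 10 of 18 same-numbered pairs had correlated deviations (r over 0.1, range -0.48 to 0.66, median 0.14, against -0.04 for other pairs). A library correlated best with its own number in 11 of 36 cases. The 3 libraries numbered 3 had the 3 highest scores (1.46, 1.08 and 1.29 in pregnant, pseudopregnant and virgin). As not every pair exceeded 0.1, the main fit and the permutations did not use the numbers as a pairing. These values cannot settle whether the numbers mark one. With the replicate block, Cry1 was 0.02 and Cry2 0.52 in pregnant against virgin libraries (Cry2 unadjusted p = 0.00538, edgeR adjusted p = 0.699), and 1, 0 and 0 genes were called. At an unadjusted p under 0.05 there were 979, 1988 and 618 genes with the block, against 540, 1375 and 345 without it. Depth limits Rora and Bhlhe41, with at most 25 and 5 counts per library.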

Other observations

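After adjustment for the absorptive minus proliferation score, a step added once the data had been seen, other pairs passed than before. Arntl with Npas2 had an r of 0.76 (permutation, adjusted p = 0.00336) on these residuals, against 0.5 on the levels themselves (rho 0.4, adjusted permutation p = 0.117). Clock with Rora had 0.68 (adjusted permutation p = 0.0185). Npas2 ran opposite to Dbp (-0.77, adjusted permutation p = 0.0118) and to Tef (-0.69, adjusted permutation p = 0.0166) on the same residuals. On the levels these r were -0.14 and 0.08. Rora with Per3 had 0.68 (adjusted permutation p = 0.0166), against 0.41 on the levels. On residuals from the length slope, the expression of Cry2 was also correlated with Dbp (r 0.68, adjusted permutation p = 0.0173), against 0.51 on the levels themselves (rho 0.41, adjusted permutation p = 0.162).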
